A study of Homo sapiens with 6 samples.

Results

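Tumour cells display surface ligands that natural killer cells read through activating and inhibitory receptors. The genes of 9 such ligands were followed here: NCR3LG1, MICA, MICB, ULBP1, ULBP2, ULBP3, PVR, CD48 and CLEC2D. They are 9 of the 25277 gene rows of the study's expression table and were picked by gene symbol. NCR3LG1 was singled out because its value was higher than the control in all 4 libraries with a guide RNA, and the other 8 were added to show whether ligands of the same kind did likewise. The values that chose NCR3LG1 are therefore given as a description, without a test.

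RNA was sequenced from 6 libraries of Jeko and Rec-1, human B-cell lines derived from mantle cell lymphoma. In each line, stable cells with the CRISPR/Cas9 empty vector (1 control library) were compared with stable cells carrying NR4A1 sgRNA#1 (1 library) or NR4A1 sgRNA#2 (1 library). All 6 cultures carried a tet-on vector and received doxycycline for 48 h, the controls included. NR4A1 encodes an orphan nuclear receptor, and the series asks about its inhibition together with ibrutinib, a kinase inhibitor that none of these libraries received according to their labels. Levels are FPKM, mapped fragments scaled by transcript length and library size. Differences are on the log2(FPKM + 1) scale, which understates changes of low genes, and each is taken from the control of the same line. Neither control has a replicate, and the labels do not say whether the guide libraries came from independent cultures, so the spread between them may be partly technical.

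NCR3LG1 encodes B7-H6, a B7-family protein that is bound by the activating receptor NKp30 and is found on many tumour cells but on few resting normal cells. MICA, MICB and the ULBP proteins are stress-induced relatives of MHC class I that are bound by NKG2D, an activating receptor that signals through the adaptor DAP10 (gene HCST). PVR (CD155) is shared by the activating receptor DNAM-1 and the inhibitory receptors TIGIT and CD96. CD48 is bound by 2B4 and is carried by most blood cells, and CLEC2D encodes LLT1, which engages the inhibitory receptor NKR-P1A (CD161).

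Some facts on the libraries bear on every comparison below. NR4A1 itself was 5.99 FPKM in control Jeko cells against 3.89 and 4.44 with guides 1 and 2, and 11.6 FPKM in control Rec-1 cells against 27.4 and 12.7. The targeted transcript was lower with both guides in Jeko and with neither in Rec-1, where directions rest on the labels. The B-cell markers MS4A1, CD79A, CD79B, PAX5 and CD22 were at or above 1 FPKM in each of the 6 libraries. The library labelled Rec-1 control correlated at 0.988 with the Jeko control across 10322 protein-coding genes, whereas its correlations with Rec-1 sgRNA 1 and 2 were 0.805 and 0.811 (genes are not independent replicates). CCND1 (cyclin D1), which marks mantle cell lymphoma, lay from 442 to 815 FPKM over the Jeko libraries and the Rec-1 control but was 0.696 and 0.592 FPKM in the Rec-1 sgRNA libraries. Summed over 4 T-cell markers, levels were 2.11 to 5.43 FPKM in the Jeko libraries and the Rec-1 control and 102 and 120 FPKM in the Rec-1 sgRNA libraries, where CD3D, CD3E and CD3G were present and CD2 was near 0. Whether the library labelled Rec-1 control or the libraries labelled Rec-1 sgRNA are mislabelled cannot be told from these values, and what a Rec-1 difference from its own control means depends on it. Every Rec-1 difference below includes this gap, so the values within Jeko are given separately.

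The upstream windows of the ligands on whose patterns the results turn are shown first. Each is the 250 bases before the RefSeq transcription start on GRCh38.p14, in the direction of the gene. NCR3LG1 (chr11:17351550-17351799, plus strand) was above its own-line control in all guide libraries. ULBP1 (chr6:149963693-149963942, plus strand) separated the guides. CLEC2D (chr12:9669463-9669712, plus strand) was lower in both Rec-1 sgRNA libraries than in the other 4. Capitals mark GC boxes (GGGCGG on either strand).
NCR3LG1: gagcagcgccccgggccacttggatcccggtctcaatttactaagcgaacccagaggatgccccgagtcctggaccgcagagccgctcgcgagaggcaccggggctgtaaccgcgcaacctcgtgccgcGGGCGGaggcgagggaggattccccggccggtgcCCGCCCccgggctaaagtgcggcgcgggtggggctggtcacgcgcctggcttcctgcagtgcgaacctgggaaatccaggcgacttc
ULBP1: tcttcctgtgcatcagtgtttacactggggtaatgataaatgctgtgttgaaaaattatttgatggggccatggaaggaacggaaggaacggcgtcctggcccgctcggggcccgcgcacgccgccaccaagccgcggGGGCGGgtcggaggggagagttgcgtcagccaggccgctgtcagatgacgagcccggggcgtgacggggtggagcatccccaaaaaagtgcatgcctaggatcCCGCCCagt
CLEC2D: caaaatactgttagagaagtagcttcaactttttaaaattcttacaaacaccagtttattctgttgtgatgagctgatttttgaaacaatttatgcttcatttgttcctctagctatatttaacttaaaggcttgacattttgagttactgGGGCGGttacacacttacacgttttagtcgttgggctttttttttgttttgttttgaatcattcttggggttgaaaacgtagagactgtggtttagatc

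Matching windows were found for all 9 genes, and 5 other motifs were searched on both strands besides the GC box. The NBRE, the element that NR4A1 binds as a monomer (AAAGGTCA), was in 0 of the 9 windows and in 1.045% of 35116 promoter windows of the same length. The GC box was in 42.6% of all windows and in 7 of the 9, with 2 copies in NCR3LG1 and 6 in ULBP3, whereas PVR and CD48 had none. The CCAAT box (CCAAT) was in the MICA, MICB and ULBP2 windows and in 32.0% of all. The CRE (TGACGTCA), the E-box (CACGTG) and the amino acid response element (TGATGNAA) matched none of the 9 and 1.65%, 6.35% and 3.14% of all windows. The shares of C and G ran from 33.6% in CLEC2D to 72.0% in ULBP3, with 70.0% in NCR3LG1. A match is a string of letters and shows no binding. A missing match concerns only the exact string searched. It says nothing of variant sites within the window or of the factor outside it.

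NCR3LG1 (chromosome 11, 17373347 to 17398888, plus strand, GRCh37, protein-coding) was low in both controls and several times higher with either guide in either line. Control Jeko cells had 0.638 FPKM, Jeko sgRNA 1 had 4.63 and Jeko sgRNA 2 had 3.91. Control Rec-1 cells had 0.995 FPKM, Rec-1 sgRNA 1 had 6.44 and Rec-1 sgRNA 2 had 6.62. In ascending order the 2 controls came first, then the Jeko sgRNA libraries and last the Rec-1 sgRNA libraries. That each guide library lay above its own control was the reason for the choice. The share of all genes with this order was not computed. NCR3LG1 was 7.25 and 6.14 times its control in Jeko and 6.47 and 6.65 times in Rec-1. On the log2 scale the mean difference was 1.80 ± 0.16 (SD, n = 4 differences, which share 2 controls), or 1.68 over the Jeko libraries alone. Among rows above 0, NCR3LG1 stood at percentile 29.6 in the Jeko control and 32.9 in the Rec-1 control, and between 45.9 and 55.6 in the guide libraries.

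**Figure D1:**
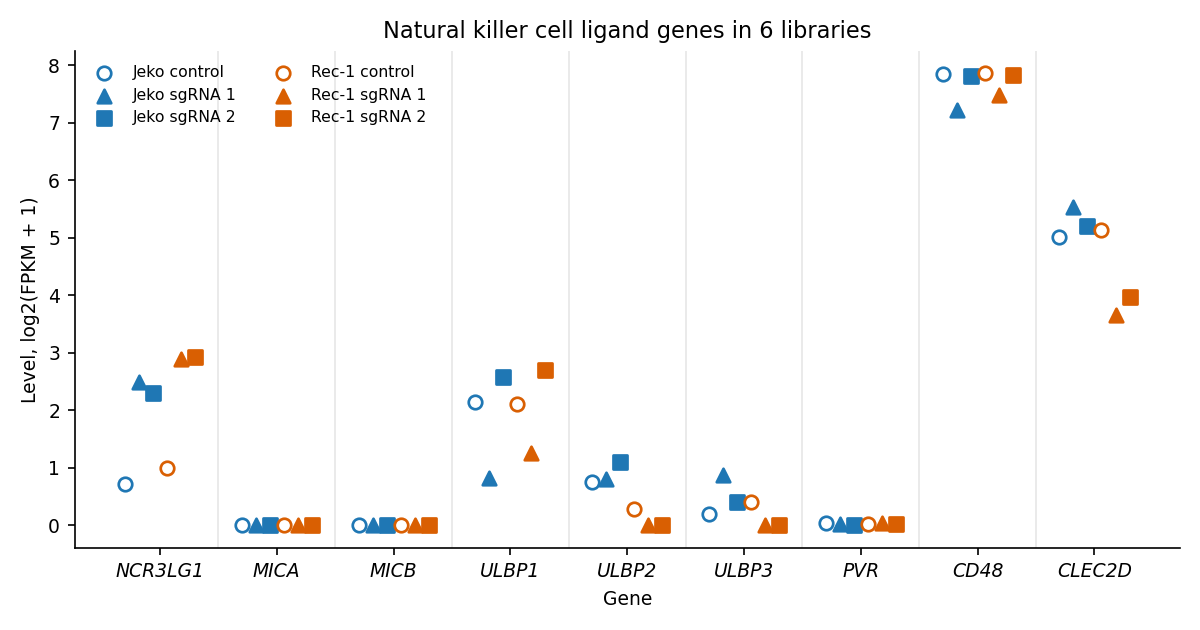
Level of each of the 9 ligand genes as log2(FPKM + 1) in the 6 libraries (open circles, controls; triangles, guide 1; squares, guide 2; blue, Jeko; orange, Rec-1; 1 point per library). NCR3LG1 lies under 1 FPKM in both controls and from 3.91 to 6.62 FPKM with a guide, and MICA and MICB are listed at 0 throughout.

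Of the 9 genes, NCR3LG1 was the one higher than the own control in all 4 guide libraries, and CD48 the one lower in all 4. Over all 11400 genes tested (mean of at least 1 FPKM), 21.0% were higher and 21.1% lower in all 4, so a shared direction alone was common. At least 2-fold higher in all 4 on the log2(FPKM + 1) scale were 99 genes, or 0.868%, NCR3LG1 among them, and 43, or 0.377%, were at least 2-fold lower, 0 of the 9 among them. Over the controls the mean of NCR3LG1 was 0.817 FPKM, so it passed the filter through the guide libraries, and of 619 tested genes under 1 FPKM in both controls 19, or 3.07%, were 2-fold higher in all 4. A model across all genes (limma on log2 values with the line as covariate) called 28 of 11400 genes for the sgRNA effect at an adjusted p under 0.05, or 0.246%, and called 0 of the 4 tested members in either direction. The choice of NCR3LG1 used this contrast, so nothing is read from that count.

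Transcript length moved with the sgRNA difference and is set beside NCR3LG1. Its longest annotated transcript has 6364 nt, which puts it in the longest of 5 equal groups of tested protein-coding genes (5790 to 34626 nt). Among these genes, the median difference was 0.36 in both Jeko sgRNA libraries and 0.15 and 0.21 in Rec-1 sgRNA 1 and 2, and 41.9% of genes were higher in all 4. In the shortest group the medians lay between −0.36 and −0.22, and 4.60% of genes were higher in all 4. The share at least 2-fold higher in all 4 was 0.775% in the longest group. After a smooth length trend was taken out of each library, the mean difference of NCR3LG1 was 1.56, against 1.80 before.

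**Figure D2:**
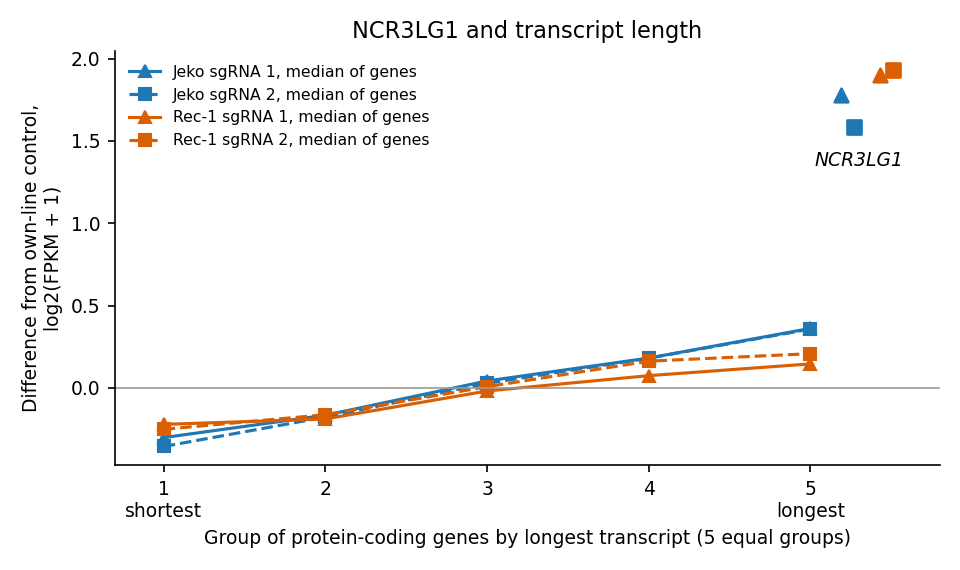
Median log2 difference from the own-line control in each of 5 equal groups of protein-coding genes by longest transcript (lines, 1 per guide library), with the 4 differences of NCR3LG1 at the right (triangles, guide 1; squares, guide 2; blue, Jeko; orange, Rec-1). The medians run from between −0.36 and −0.22 in the shortest group to at most 0.36 in the longest, and NCR3LG1 lies between 1.59 and 1.93.

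No stretch of 50 bases in the longest NCR3LG1 transcript occurred in an annotated transcript of another gene. On the opposite strand, the annotation of KCNJ11, a potassium channel gene, overlaps it by 12170 nt, and strand use in the counting is not given in the sources used here. KCNJ11 was 1.71, 1.48 and 4.13 FPKM in the Jeko control, sgRNA 1 and sgRNA 2 and 3.02, 1.80 and 1.32 FPKM in the same order in Rec-1. It was thus below its control in 3 of the 4 comparisons in which NCR3LG1 was above.

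The 5 tested protein-coding genes whose levels over the 6 libraries were most like those of NCR3LG1 were KIF5B, APAF1, TGIF2, LSM14A and CBX6, with Pearson correlations from 0.993 (CBX6) to 0.997 (KIF5B). These points share 2 controls and are given as a description. KIF5B, a kinesin heavy chain, was 13.3 FPKM in control Jeko cells and 28.6 and 25.0 with guides, and 13.9 FPKM in control Rec-1 cells and 31.9 and 33.0 with guides. APAF1, the scaffold of the apoptosome, went from 1.31 FPKM in the Jeko control to 3.25 and 2.69 and from 1.49 in the Rec-1 control to 3.54 and 3.76. The ratios to control of both were smaller than those of NCR3LG1. Their longest transcripts have 5866 and 7201 nt, also in the longest group.

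Among the NKG2D ligands, MICA (chromosome 6, 31367561 to 31383092) and MICB (chromosome 6, 31462658 to 31478901) were listed at 0 in all 6 libraries. These zeros cannot be read as absence. Of 98 protein-coding genes that start within 1 Mb of the MICA start, MICA and MICB included, 91 were listed at 0 in every library, or 92.9%. The share was 18.7% of 732 genes on chromosome 6 more than 5 Mb away. The zeros there included genes that most cells use, such as TUBB (a tubulin), CSNK2B (a casein kinase subunit) and BAG6, a chaperone that is itself reported to bind NKp30. HLA-E and HLA-G, ligands of inhibitory receptors, were likewise at 0, and HLA-B, between 6.17 and 10.5 FPKM, was the one gene of the 98 above 1 FPKM in any library. B2M, the light chain of MHC class I on another chromosome, was between 1597 and 3136 FPKM. The level of MICA and MICB is therefore not known from these values.

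**Figure D3:**
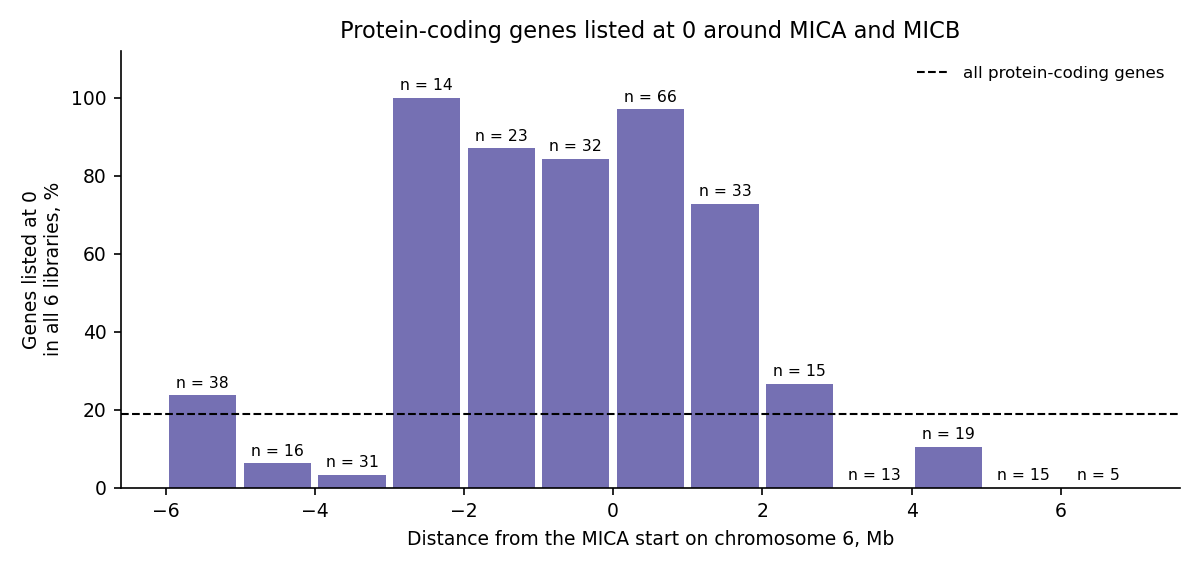
Share of protein-coding genes listed at 0 in all 6 libraries in 1 Mb windows by distance from the MICA start on chromosome 6 (bars, with the number of genes above each; dashed line, all protein-coding genes, 19.0%). From 3 Mb before to 2 Mb after MICA, 72.7% to 100% of the genes in a window are listed at 0.

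ULBP1 (chromosome 6, 150285079 to 150294851), the ULBP gene with the highest mean over the 6 libraries, was below the control with guide 1 and above it with guide 2 in both lines. It was 3.43 FPKM in control Jeko cells, 0.769 in sgRNA 1 and 4.96 in sgRNA 2, and 3.32 FPKM in the Rec-1 control, 1.40 in sgRNA 1 and 5.50 in sgRNA 2. Guide 1 libraries were at 22.4% and 42.2% of their controls in Jeko and Rec-1, and guide 2 libraries at 145% and 165%. This arrangement was found at 157 of the tested genes, or 1.38%. Guide 2 exceeded guide 1 by 1.59 (SE 0.18) over both lines. That contrast was added after the values were seen, and its limma adjusted p over all genes was 0.708 (unadjusted 0.00181), so ULBP1 did not pass. The contrast called 0 of 11400 genes (0.0%), with 655 at an unadjusted p under 0.05, and it has 1 residual degree of freedom.

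The genes most like ULBP1 over the 6 libraries, listed after its values were seen, were CEBPG, ATP6V1E2, METTL4, SLC1A4 and FAM46C (Pearson correlations from 0.976 to 0.992). CEBPG, a bZIP transcription factor, was 45.2, 27.0 and 52.0 FPKM in the Jeko control, sgRNA 1 and sgRNA 2 and 47.0, 32.3 and 52.3 in Rec-1. ATF4, a stress-response transcription factor known to drive ULBP1, was 658, 379 and 761 FPKM in Jeko and 663, 598 and 742 in Rec-1, with guide 1 lowest and guide 2 highest in each line. Whether it has a part in the ULBP1 values was not tested. In ULBP1, 8.13% of the 50-base stretches of its longest transcript recur in other genes, mostly in RAET1K, a pseudogene of the family.

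ULBP2 and ULBP3 were low and went opposite ways in the 2 lines. ULBP2 was 0.677 FPKM in the Jeko control, 0.737 and 1.14 with guides 1 and 2, 0.215 in control Rec-1 cells and 0 in both Rec-1 sgRNA libraries. ULBP3 was 0.146 FPKM in the Jeko control, 0.835 and 0.330 with guides 1 and 2, 0.331 in control Rec-1 cells and 0 in both Rec-1 sgRNA libraries. Both genes were thus above the control in Jeko and below it in Rec-1, at levels under the filter for testing. The share of genes at such levels with these directions was not computed, so little is read from them. A depth estimate from low values put Rec-1 sgRNA 2 at 0.687 of the Jeko control, and no depth could be derived for Rec-1 sgRNA 1. ULBP2 is also uncertain because 29.7% of the 50-base stretches of its transcript occur in RAET1L, a related ligand gene that was listed at 0 in all libraries. ULBP1, ULBP2 and ULBP3 lie near each other on chromosome 6. Of the 20 protein-coding genes within 1 Mb of ULBP1, these included, 2 were at 0 throughout, so the zeros around MICA do not extend there.

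PVR, the DNAM-1 ligand, had values near 0 in all libraries. It lay between 0.0063 FPKM in Jeko sgRNA 2 and 0.0268 in the Jeko control, and between 0.0101 and 0.0237 FPKM in the Rec-1 libraries. No direction is read at this level. In its longest transcript 35.7% of 50-base stretches recur elsewhere, 34.5% in ENSG00000279095, an annotated gene that overlaps it on the same strand. CEACAM19 also overlaps PVR on the same strand, by 3886 nt, so part of the PVR level is uncertain. The related PVRL2 (nectin-2, the second ligand of DNAM-1) was at most 0.144 FPKM, in Rec-1 sgRNA 1.

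CD48 (chromosome 1, 160648536 to 160681621) was by far the most abundant of the 9. It was 229 FPKM in control Jeko cells, 149 in sgRNA 1 and 224 in sgRNA 2, and 232 FPKM in the Rec-1 control, 177 in sgRNA 1 and 226 in sgRNA 2. The guide 2 libraries were at 97.8% and 97.6% of their controls and the guide 1 libraries at 65.0% and 76.5%. The mean log2 difference was −0.27 ± 0.29 (SD, n = 4 differences), which does not exceed its spread. CD48 is in the shortest group of genes by transcript, and its mean difference was −0.0098 after the length trend was taken out. CD48 stood at percentile 96.5 or higher among rows above 0 in every library.

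CLEC2D (chromosome 12, 9817565 to 9852149) was lower in both Rec-1 sgRNA libraries than in the other 4. It was 31.2 FPKM in control Jeko cells, 45.6 in sgRNA 1 and 36.1 in sgRNA 2, and 34.0 FPKM in the Rec-1 control but 11.7 in sgRNA 1 and 14.8 in sgRNA 2. The share of all tested genes with this arrangement was not computed, and 25.9% of them passed limma between the sgRNA libraries of the 2 lines. The mean log2 difference from the own control was 0.37 in Jeko and −1.31 in Rec-1, an interaction of −1.68 (SE 0.39) that did not pass limma (adjusted p 0.108 over all genes, where 6.94% passed). A higher value in both Jeko guides and a lower one in both Rec-1 guides was seen at 10.8% of tested genes. In its longest transcript 17.9% of 50-base stretches recur elsewhere, most of them in the overlapping pseudogene NPM1P7, so part of its level is uncertain.

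Within Jeko alone, 4 of the 9 genes were above the control with both guides (NCR3LG1, ULBP2, ULBP3 and CLEC2D), and CD48 was below. PVR is left out here because no direction is read at its level. Of the 4 tested members, 2 were above, beside 36.9% of all tested genes, and 1 was below, beside 36.4%. Within Rec-1, NCR3LG1 was above with both guides and ULBP2, ULBP3, CD48 and CLEC2D were below. Of the tested members 1 was above there, beside 41.8% of all tested genes, and 2 were below, beside 43.1%. The Jeko differences of NCR3LG1 do not use the library labelled Rec-1 control, but their direction was part of the reason for its choice.

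**Figure D4:**
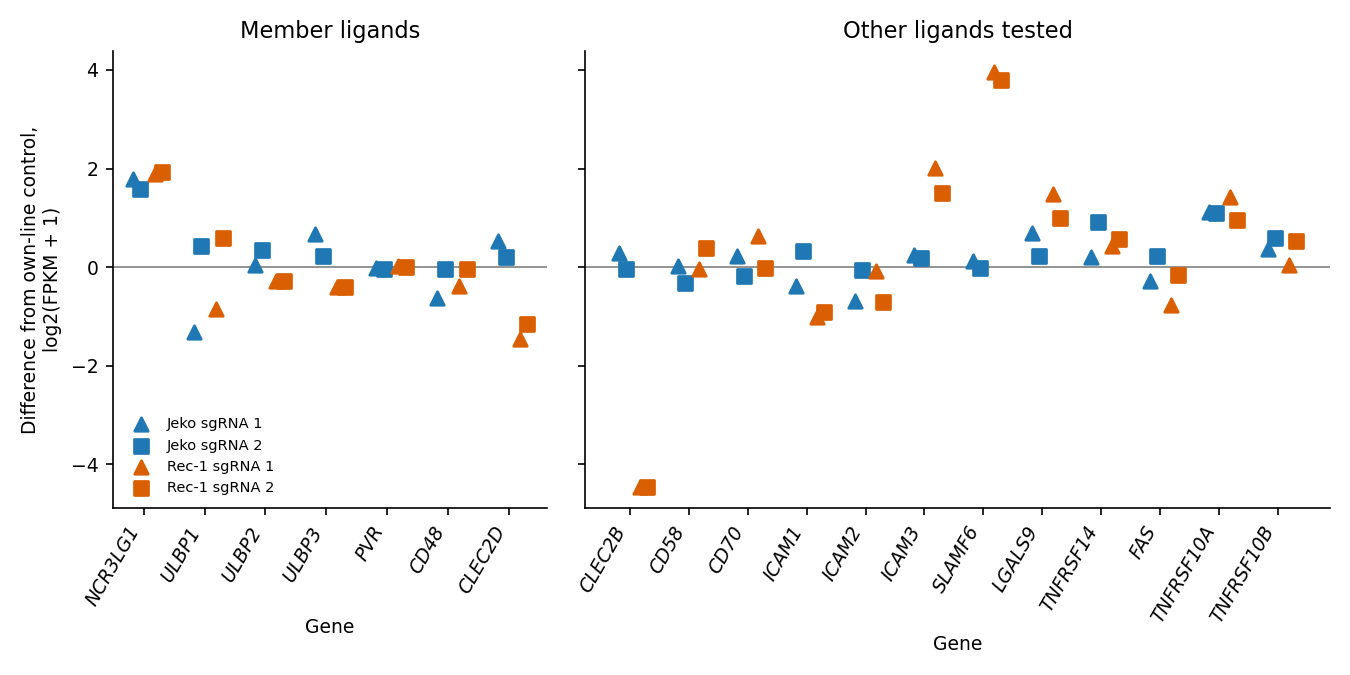
Difference of log2(FPKM + 1) from the own-line control for the 7 member ligands with a value above 0 (left) and for the 12 tested genes of a wider list of natural killer receptor ligands, which also holds the death receptors FAS, TNFRSF10A and TNFRSF10B (right), 1 point per guide library (triangles, guide 1; squares, guide 2; blue, Jeko; orange, Rec-1). NCR3LG1 lies between 1.59 and 1.93 at all 4 points, whereas ULBP1 spans −1.33 to 0.59 and CLEC2D −1.47 to 0.53.

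The difference between the lines was taken among the guide libraries and tested for the members that were not chosen by their values, as Rec-1 sgRNA minus Jeko sgRNA with limma (2 libraries against 2). CLEC2D was lower in Rec-1 sgRNA by a log2 difference of −1.56 (SE 0.23, adjusted p 0.0177), and it passed, as did 25.9% of all tested genes. Without any one of the 4 sgRNA libraries its adjusted p lay between 0.0778 and 0.111. NCR3LG1 was higher in Rec-1 sgRNA by 0.52 (SE 0.15), given without a test because its guide libraries chose it and carried it past the filter. ULBP1 (0.28, SE 0.80) and CD48 (0.13, SE 0.29) did not pass, with limma adjusted p of 0.816 and 0.755.

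A wider list held 24 genes, ligands of natural killer receptors and the death receptors FAS, TNFRSF10A and TNFRSF10B, which are not such ligands. Of the 24, 12 genes were tested. The other 12 averaged under 1 FPKM, and 5 of those were at 0 in all libraries. For the sgRNA effect limma called 0 of the 12 in either direction (lowest adjusted p 0.156). Higher in all 4 guide libraries were 5 of the 12 (ICAM3, LGALS9, TNFRSF14, TNFRSF10A and TNFRSF10B), beside 21.0% of all tested genes, and lower in all 4 was ICAM2, an adhesion ligand of LFA-1, beside 21.1%. The median of their mean differences was 0.27, against 0.0079 over all tested genes. TNFRSF10A, a death receptor for TRAIL that was singled out after its values were seen, was 3.07 FPKM in control Jeko cells and 7.80 and 7.78 with guides, and 4.43 FPKM in control Rec-1 cells and 13.5 and 9.53 with guides (limma adjusted p 0.156). CD70, the ligand of CD27 and the most abundant of the list, was 139 FPKM in control Jeko cells and 162 and 123 with guides 1 and 2, and 139 FPKM in control Rec-1 cells and 218 and 137 with guides, without a common direction.

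Between the lines, 3 of these 12 genes passed limma, which is near the 25.9% of all tested genes that did. SLAMF6, a self-ligand of the SLAM family, was at most 0.111 FPKM in the Jeko libraries and the Rec-1 control and 14.7 and 12.9 FPKM in Rec-1 sgRNA 1 and 2 (log2 difference 3.81, SE 0.15). It reached the filter through the Rec-1 sgRNA libraries alone, so no p is given. ICAM3, an adhesion ligand, was between 25.8 and 31.1 FPKM in the same 4 libraries and 128 and 90.5 FPKM in Rec-1 sgRNA (1.80, SE 0.24, limma adjusted p 0.0144). CLEC2B, which encodes the NKp80 ligand AICL and lies near CLEC2D on chromosome 12 (10004968 to 10021985), was between 13.1 and 22.5 FPKM in those 4 and at 0.061 FPKM in both Rec-1 sgRNA libraries (−3.89, SE 0.18, limma adjusted p 0.00158). CLEC2B and CLEC2D were thus both lower there.

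**Figure D5:**
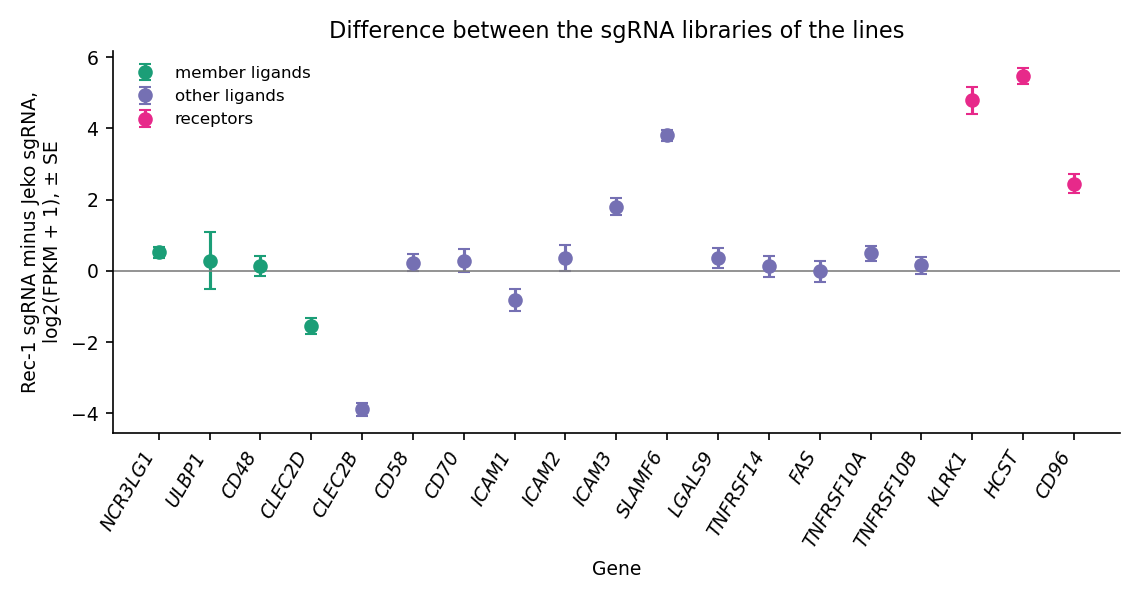
Rec-1 sgRNA minus Jeko sgRNA on the log2(FPKM + 1) scale, with the limma standard error as bars (2 libraries per line), for the tested member ligands (green), other ligands (purple, with the death receptors FAS, TNFRSF10A and TNFRSF10B) and receptors (pink). CLEC2D lies at −1.56 and NCR3LG1 at 0.52, and the receptor genes KLRK1, HCST and CD96 lie between 2.45 and 5.47.

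The receptors for the ligands were examined as genes that B cells should largely lack. KLRK1 (NKG2D) was at most 0.140 FPKM in the Jeko libraries and the Rec-1 control but 19.1 and 39.8 FPKM in Rec-1 sgRNA 1 and 2. HCST (DAP10) was between 0.886 and 3.84 FPKM in those 4 and 98.2 and 97.1 FPKM in Rec-1 sgRNA. CD96 was at most 0.141 FPKM in the 4 and 3.70 and 6.54 FPKM in Rec-1 sgRNA. The line differences of KLRK1 and CD96 were 4.80 and 2.45, given without a test because both reached the filter through the Rec-1 sgRNA libraries alone. That of HCST was 5.47 (SE 0.23, limma adjusted p 0.00142, beside 25.9% of all tested genes that passed). The other 5 (NCR3, CD226, TIGIT, CD244 and KLRB1) had means under 1 FPKM, and NCR3, the NKp30 gene, lies among the chromosome 6 genes listed at 0. The markers of natural killer cells summed to 48.0 and 48.8 FPKM in Rec-1 sgRNA and to 1.36 to 4.22 FPKM elsewhere, through PRF1 and NKG7, while KLRF1, NCR1 and GNLY were at 0 in all 6 libraries. Whether these differences have a part in those of CLEC2D was not tested.

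Ligands can be shed from the cell surface by proteases. Of 6 genes of shedding, 4 were tested, and limma called 0 for the sgRNA effect in either direction (lowest adjusted p 0.169). Higher in all 4 guide libraries were 3 of them (ADAM9, ADAM10 and ADAM17), beside 21.0% of all tested genes. Their longest transcripts have 4632, 11158 and 4776 nt, in the 2 longest groups of genes, where 32.0% and 41.9% were higher in all 4. ADAM17, a sheddase of NKG2D ligands, was 5.50 FPKM in control Jeko cells and 9.98 and 11.6 with guides, and 6.85 FPKM in control Rec-1 cells and 10.9 and 12.9 with guides. PDIA6, a disulfide isomerase implicated in MICA shedding and the most abundant of the list, was 184 FPKM in control Jeko cells and 165 and 283 with guides 1 and 2, and 161 FPKM in control Rec-1 cells and 369 and 416 with guides. The median difference of the 4 was 0.85, against 0.0079 over all tested genes.

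NCR3LG1 was also set beside its own protein family. Of 9 other B7-family genes 4 were tested, 0 of them were higher in all 4 guide libraries (21.0% of all tested genes), CD86 was lower in all 4 (21.1% of all), and limma called 0 for the sgRNA effect (lowest adjusted p 0.331). ICOSLG, the ligand of ICOS and the most abundant of them, was 11.0 FPKM in control Jeko cells and 16.5 and 23.7 with guides, but 15.4 FPKM in control Rec-1 cells and 4.28 and 6.08 with guides. CD80, a ligand of CD28, and ICOSLG were lower in Rec-1 sgRNA than in Jeko sgRNA by −1.58 (SE 0.27) and −1.77 (SE 0.27), with limma adjusted p of 0.0253 and 0.0204. These were 2 of the 4 tested genes, beside 25.9% of all tested genes that passed between the lines. The median of the mean differences of the 4 genes was −0.43.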

How the data were processed

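RNA was taken through an Illumina TruSeq kit, per the labels' protocols. The authors deposited FPKM for 25277 gene rows in 6 columns, per the file headers; TopHat and hg19 are named in the submitters' processing notes. The program that computed FPKM, its annotation and its strand setting are not given in the sources used here. FPKM are no counts, so limma 3.58.1 in R 4.3.3 (trend on) was run on log2(FPKM + 1) for the 11400 genes that averaged 1 FPKM or more, with Benjamini-Hochberg adjustment over all of them, after tests on simulated data. Absolute depth is unknown; at low values the commonest ratio of 2 libraries gave depths of 0.872, 1.10, 1.10 and 0.687 relative to the Jeko control for Jeko sgRNA 1 and 2, the Rec-1 control and Rec-1 sgRNA 2. Gene positions and transcript lengths are from GENCODE on GRCh37, with 22947 symbols matched; promoters are from RefSeq (GRCh38.p14). Python 3.11.15 with pandas 2.3.3 was used for the rest.

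The members and gene lists were chosen with earlier results of these data known. Named by rule are NR4A1, the 9 members, the 5 genes most correlated with NCR3LG1, the most abundant gene of each list and list genes at least 2-fold apart in all 4 comparisons, of which there were 0. Other named genes were chosen after their values were seen, and some list genes are not reported here. Alternatives changed the pseudocount, filter, scaling, genes tested, length adjustment, replicate block and libraries.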

Additional observations from a re-analysis of the deposited data

Results flagged for a closer look

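ULBP2, ULBP3 and CLEC2D were above the control in both Jeko sgRNA libraries and below it in both Rec-1 sgRNA libraries. These directions were seen at 10.8% of tested genes. No share was computed for genes as low as ULBP2 and ULBP3, so little is read from their directions. The mean log2 differences in Jeko and Rec-1 were 0.20 and −0.28 for ULBP2, 0.45 and −0.41 for ULBP3, and 0.37 and −1.31 for CLEC2D. The difference between the lines was not tested for ULBP2 and ULBP3, whose levels were under the filter, and did not pass for CLEC2D (interaction −1.68, limma adjusted p 0.108, between 0.0625 and 0.264 over its 11 alternatives).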

How the results depend on the processing

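NCR3LG1 was higher in every remaining comparison under each alternative run. It was chosen for this direction in the same libraries, so that outcome gives no support. Its mean difference lay between 1.56 (transcript-length adjustment) and 2.58 (pseudocount of 0.1). The number of members higher in all comparisons was 1 under each alternative except without the Rec-1 control, where it was 4 (range 1 to 4 over left-out libraries), since the Jeko comparisons alone then remained. For the sgRNA effect the count of 28 genes became 12 with no filter, 9 with a replicate block by guide number, and 0 with protein-coding genes only (2324 at an unadjusted p under 0.05) or with length adjustment (1797 at an unadjusted p under 0.05). It lay between 11 and 2180 with 1 library left out, the highest without the Jeko control and 51 without the Rec-1 control. The line difference count of 2947 became 1549 at a minimum mean of 5 FPKM and lay between 803 and 2940 with 1 library left out. The interaction count of 791 became 318 at 5 FPKM and 428 with the replicate block, and lay between 75 (without Jeko sgRNA 2) and 454. The guide contrast called 1 gene at 5 FPKM, against 0. Where leaving out a library left 1 guide in a line, that library was assumed to vary like the others.

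Small effects changed sign in some refits. With 1 library left out, the line differences of ULBP1 and CD48 reached 1.16 and 0.43 without Jeko sgRNA 2 and became −0.59 and −0.16 without Jeko sgRNA 1 and −0.44 and −0.041 without Rec-1 sgRNA 2. Their interactions reached 1.19 and 0.41 without Jeko sgRNA 2 and became −0.56 and −0.18 without Jeko sgRNA 1 and −0.40 and −0.060 without Rec-1 sgRNA 2. The guide difference of CLEC2D became 0.0022 with the pseudocount of 0.1 and 0.0045 with upper-quartile scaling. The cause was not tested. The replicate block changed no call of a member, and both lines carried the same pair of guides by their labels, which name no shared batch or day. Deviations of same-numbered guides correlated at 0.0998 between the lines over all tested genes.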

Other observations

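NCR3LG1 has 22 protein-coding neighbours that start within 1 Mb of it, of which 10 were tested. Higher in all 4 guide libraries were 2 of the 10, near the 21.0% of all tested genes, and 1 was lower in all 4, beside 21.1%. PIK3C2A, a lipid kinase gene that was singled out after its values were seen, was 1.98 FPKM in control Jeko cells and 3.73 and 4.25 with guides, and 2.21 FPKM in control Rec-1 cells and 7.70 and 7.84 with guides.

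DNA breaks are known to raise NKG2D ligands through the kinases ATM and ATR. ATM was higher and E2F1 lower in all 4 guide libraries, and limma called neither for the sgRNA effect (adjusted p 0.251 and 0.169). ATM was 1.68 FPKM in control Jeko cells and 1.91 and 1.83 with guides, and 1.74 FPKM in control Rec-1 cells and 7.19 and 7.02 with guides. Between the lines ATM was higher in Rec-1 sgRNA (log2 difference 1.50, SE 0.14, limma adjusted p 0.00592), and ATR and E2F1 were lower (−0.88 and −1.15, limma adjusted p 0.0326 and 0.0343).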
